A study of Mus musculus with 6 samples.

Results

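The large odorant receptor cluster of mouse chromosome 2 was read as the 225 genes whose name is Olfr followed by digits only and whose listed start lies between 84000000 and 91000000 on that chromosome. They are 225 of 1113 odorant receptor genes of that name pattern, among 41709 listed genes. RNA was sequenced from the posterior nasal septum, dissected as mucosa together with its bone, of mice reared on a control diet with sufficient zinc or on a zinc-deficient diet. The diets ran from 4 to 8 weeks of age, and strain and genotype are not stated in the labels. Each diet has 3 libraries, which carry the numbers 4, 5 and 6, and the study asks how lack of zinc bears on the renewal of the olfactory epithelium. Whether every library is from its own mouse is not stated, so p-values here measure library-to-library spread, part of which may be technical.

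Odorant receptors are G protein-coupled receptors in the cilia of olfactory sensory neurons. Each mature neuron uses one receptor gene, and one allele of it, out of the whole repertoire, under enhancers bound by Lhx2, Ebf factors and Ldb1. The level of one receptor in whole mucosa therefore follows both the number of neurons that chose it and the RNA each of them holds, and in these bulk samples fewer neurons and less RNA per neuron cannot be told apart. All receptors of this cluster are of class II, the class typical of land vertebrates, and MOR family numbers group them by likeness of sequence.

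The first member was Olfr987 (start 85161123, minus strand) and the last was Olfr1274 (end 90234241, plus strand), in the coordinates of the deposited table. The sources used here name no genome build for it. The members covered 5.07 Mb with a median of 18.9 kb between neighbouring starts. Of the 225, 76 lay on the plus strand and 149 on the minus strand. Between the first and the last member the table listed only 6 other genes besides 18 receptors named as pseudogenes, so this stretch is almost wholly receptors. RefSeq synonyms gave a MOR family for 218 members, in 47 families. The families with the most members were MOR233 with 17, MOR174 with 16, MOR264 with 15, MOR231 with 14 and MOR177 with 13.

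Coding sequences were taken from GENCODE M21 transcripts (GRCm38) as the longest open reading frame of each gene, for the 218 members that matched by name and identifier. They had a median length of 942 bases. A stretch that runs into the inner end of the third transmembrane helix, where these receptors couple to their G protein, is printed here because it is conserved across otherwise different genes. Placed by the 9 bases in the reading frame that more members share than any other 9 (99 of 218 hold them), the letters that at least 90% of the members have gave the motif NTNNTNNNNNNNATGNCNTNTGANNGNT, where N is any base. Searched in the reading frame on the coding strand, it was held by 185 of the 218 members (84.9%) and by 660 of 888 odorant receptor genes elsewhere (74.3%). The motif was read from the members themselves, so their higher share is no finding. The capitals mark its 12 fixed letters, and positions count from the A of the start codon. The first 4 are the members with the highest levels per length. The other 4, picked after their values were seen, lie near the distal end and differed widely between libraries of one diet.
Olfr1162 (bases 331 to 378): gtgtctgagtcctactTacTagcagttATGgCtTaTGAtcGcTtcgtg
Olfr1176 (bases 370 to 417): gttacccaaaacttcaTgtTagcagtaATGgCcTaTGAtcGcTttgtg
Olfr1044 (bases 325 to 372): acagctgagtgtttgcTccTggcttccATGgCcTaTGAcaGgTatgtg
Olfr1110 (bases 325 to 372): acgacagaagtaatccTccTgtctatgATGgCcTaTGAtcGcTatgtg
Olfr1264 (bases 319 to 366): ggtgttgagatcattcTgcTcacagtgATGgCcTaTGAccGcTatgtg
Olfr1226 (bases 322 to 369): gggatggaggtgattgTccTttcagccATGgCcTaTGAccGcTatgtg
Olfr1228 (bases 358 to 405): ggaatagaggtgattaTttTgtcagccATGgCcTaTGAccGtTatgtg
Olfr1260 (bases 319 to 366): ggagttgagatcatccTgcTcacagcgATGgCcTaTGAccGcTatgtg
All 8 hold the 12 fixed letters.

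The coding sequence of a member was a median of 86.4% identical to its nearest other member, and the nearest was of the same MOR family for 185 of 208 members for which both families were known. For 37 members the nearest was at least 95% identical. The most alike were Olfr1049 and Olfr1051 of MOR187, at 98.7% with 12 differing bases of 927. Their bases 38 to 97 are shown with the 3 differing bases of that stretch in capitals.
Olfr1049: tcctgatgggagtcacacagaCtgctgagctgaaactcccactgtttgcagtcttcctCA
Olfr1051: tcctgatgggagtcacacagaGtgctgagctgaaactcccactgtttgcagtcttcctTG
Olfr1049 had 8 counts in zinc-deficient library 5 and 0 in the other libraries. Olfr1051 had 6, 8 and 0 counts in control libraries 4, 5 and 6 and 8, 9 and 4 in zinc-deficient libraries 4, 5 and 6. The split of reads within such a pair is uncertain. Of all 218 members, 115 shared 0% of their runs of 100 bases, as a rounded percent, with any other receptor transcript, and 11 shared over 10% of such runs.

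The libraries held between 11731999 and 18727863 counts in genes, of which the 225 receptors took between 0.017% and 0.0297%. Depending on the library, 3 counts, the limit that a count of 0 allows, equalled 0.16 to 0.256 CPM (counts per 1000000 counts of the library), for counting error only. A library of each diet stood apart for these receptors, control 5 above the other controls and zinc-deficient 4 below the other zinc-deficient libraries, and values are given with and without them. The tissue held olfactory neurons throughout, with Omp, the marker of mature olfactory neurons, at 2360, 2867 and 2878 CPM in control libraries 4, 5 and 6 and at 5043, 3339 and 3308 CPM in zinc-deficient libraries 4, 5 and 6.

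Of the 225 receptors, 211 had counts in at least 1 library and 139 in all 6. The 14 with 0 counts in all libraries include Olfr154, Olfr1022 and Olfr1163. Another 23 were counted but had fewer than 10 counts over all libraries together. Levels were uneven. The 38 most counted members were enough to reach 50% of the 20758 counts of the cluster, and the 10 most counted held 19.3%.

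By RPKM, the deposited read count scaled to gene length and library size, the highest member was Olfr1162, a MOR174 receptor gene (ENSMUSG00000075139, 87876264 to 87881473, minus strand), with a mean of 0.826 RPKM against a median of 0.0992 over the 225. Olfr1162 had 101, 79 and 125 counts in control libraries 4, 5 and 6 and 105, 148 and 174 in zinc-deficient libraries 4, 5 and 6. After scaling for library size these were 7.84, 6.27 and 8.17 CPM and 7.72, 8.54 and 9.10 CPM, and the diets overlapped. Its log2 fold change, zinc-deficient over control, was 0.19 ± 0.22 (throughout ± after a log2 fold change is its standard error), with an adjusted p = 0.764 by edgeR's quasi-likelihood test and Benjamini-Hochberg adjustment.

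The next in level per length was Olfr1176, also of MOR174, with a mean of 0.704 RPKM. It had 47, 34 and 93 counts under the control diet and 50, 63 and 81 under the zinc-deficient diet. Its highest and its lowest CPM were both in control libraries, 6.08 in control 6 and 2.70 in control 5. Olfr1044 of MOR185 followed with 0.640 RPKM and with 40, 45 and 56 counts against 40, 93 and 119. Olfr1044 was high in zinc-deficient libraries 5 and 6, at 5.37 and 6.22 CPM, whereas zinc-deficient 4, at 2.94 CPM, lay below every control library. Olfr1110 of MOR172, with 0.617 RPKM, had 55, 68 and 62 counts against 55, 66 and 44. Its CPM was 4.27, 5.40 and 4.05 under the control diet and 4.05, 3.81 and 2.30 under the zinc-deficient diet, which are just separate. At −0.44 ± 0.32 its log2 fold change did not pass (edgeR adjusted p = 0.597).

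The other members among the 10 highest per length were Olfr1264, Olfr1020, Olfr1015, Olfr987, Olfr1154 and Olfr1030, at mean RPKM from 0.548 down to 0.465, and none passed the diet test. Over these 10, no member differed from the next in order by more than its own SD over the 6 libraries. For Olfr1162, for instance, that SD was 0.149 RPKM and the gap to Olfr1176 was 0.122 RPKM. Olfr987, the first gene of the cluster, was at 1.55, 0.794 and 1.04 CPM under the control diet and at 1.91, 2.19 and 2.15 under the zinc-deficient diet. These ranges do not overlap, but the log2 fold change of 0.88 ± 0.43 did not pass (edgeR adjusted p = 0.424). At the other end Olfr1274 was at 2.02, 2.46 and 3.14 CPM against 4.04, 2.08 and 1.78.

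Some members have known odorants, and they were picked for that after their values were seen. Olfr73, the eugenol receptor of MOR174, had 12, 11 and 35 counts under the control diet and 28, 34 and 31 under the zinc-deficient diet, with 0.44 ± 0.48 as its log2 fold change (edgeR adjusted p = 0.74). Olfr1019, a receptor for the fox odour trimethylthiazoline, had 24, 27 and 44 counts against 18, 82 and 71. Its lowest and highest libraries were thus both zinc-deficient, and its log2 fold change was 0.51 ± 0.45 (edgeR adjusted p = 0.671). Olfr74, a receptor for ethyl vanillin, had 2 counts in all, both in zinc-deficient library 4.

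No receptor of the cluster changed with the diet past the test. In edgeR's test of 18427 genes, 22 had an adjusted p under 0.05, which is 0.119%. Of the 225 receptors 108 passed the low-count filter, and 0 of them were called in either direction. With an unadjusted p under 0.05 there were 5 of the 108 receptors (4.63%), against 12.9% of all genes tested. The low share is not particular to the cluster. It was 5% among the 540 other odorant receptors tested, and 10.48% among 5976 other genes within the range of levels of the members. DESeq2 called 0 of the 69 receptors it tested, where it called 2.03% of its genes. Limma called 0 receptors as well, where 6 of 18427 genes were called with voom and 15 of 21119 on log2(RPKM + 0.1). Without a low-count filter all 211 counted receptors were tested by edgeR and 0 passed, where 172 of 27970 genes did.

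The 5 receptors with an unadjusted p under 0.05 were Olfr1032, Olfr1054, Olfr1258, Olfr1167 and Olfr140, of which 3 were higher and 2 lower. Olfr1032 of MOR199 was at 0.699, 0.635 and 0.523 CPM under the control diet and at 1.62, 1.67 and 1.67 CPM under the zinc-deficient diet, from 9, 8 and 8 counts against 22, 29 and 32. The 3 zinc-deficient libraries were close to each other and all above the controls. Its log2 fold change was 1.41 ± 0.48 (edgeR adjusted p = 0.267, the smallest among the members). Its nearest relative Olfr1033, 90.8% identical in coding sequence and next to it on the chromosome, was at 1.86, 4.13 and 3.66 CPM against 0.515, 4.50 and 4.03, a log2 fold change of −0.08 ± 0.62.

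Olfr1054 of MOR188 had the highest log2 fold change of the tested members, 1.68 ± 0.62 (edgeR adjusted p = 0.306). It had 4, 2 and 10 counts under the control diet and 14, 22 and 27 under the zinc-deficient diet, so the groups were separate at very low counts. Olfr140 of MOR235, better counted, was at 2.17, 2.70 and 2.35 CPM against 3.82, 5.08 and 3.35 CPM. All zinc-deficient libraries lay above all controls, and the log2 fold change was 0.76 ± 0.32 (edgeR adjusted p = 0.353).

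On the other side Olfr1167 of MOR174 had the lowest log2 fold change, −1.26 ± 0.50 (edgeR adjusted p = 0.332). It was at 1.24, 1.51 and 1.96 CPM under the control diet and at 0.809, 0.692 and 0.471 CPM under the zinc-deficient diet, which do not overlap. Olfr1258 of MOR232 was at 3.03, 6.35 and 1.89 CPM against 0.883, 1.79 and 1.99 CPM, where control 5 was far above the rest and zinc-deficient 6 lay above control 6. Olfr142 and Olfr1085 had log2 fold changes of −1.14 and −1.13, and Olfr1209 and Olfr1112 had 1.26 and 1.10, none past the test. Olfr1209 had 0, 10 and 13 counts against 9, 45 and 14, so 1 zinc-deficient library carried its difference.

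**Figure D1:**
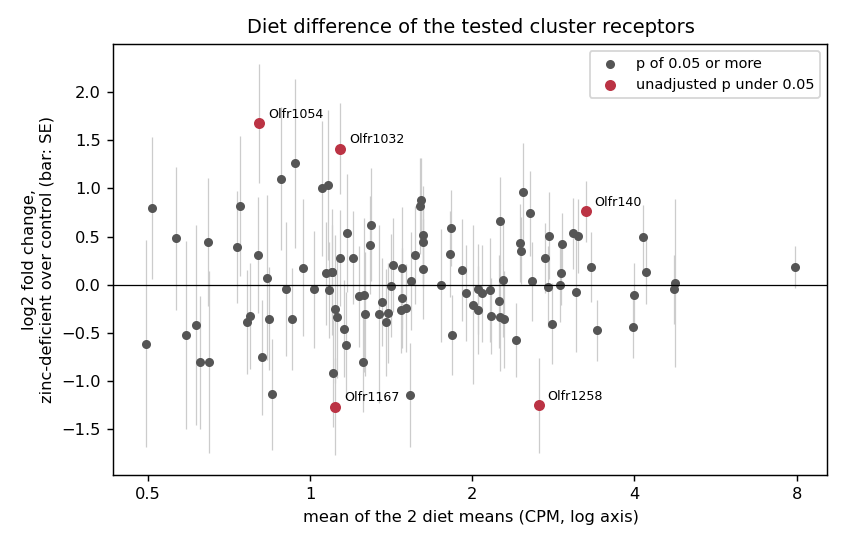
Log2 fold change of the 108 tested cluster receptors (vertical axis, zinc-deficient over control, bars are the standard error) against the mean of the diet means in CPM (log axis). The 5 receptors with an unadjusted p under 0.05 are named, and they lie on both sides of 0.

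Of the 108 tested receptors 53 (49.1%) were positive, against 49.7% of all genes tested and 62.4% of the other odorant receptors tested. The median log2 fold change was −0.0035, against −0.002 over all genes tested. The CPM ranges of the diets were separate for 7 receptors that were higher and 7 that were lower, all tested, where over all genes tested 9.56% were separate and higher and 9.31% separate and lower. Among the 117 receptors that did not pass the filter, 6 more were separate and lower and 0 separate and higher, all at low counts: Olfr1115, Olfr1135, Olfr1153, Olfr1243, Olfr1272 and Olfr228. The highest of these was Olfr228, at 0.621, 0.794 and 1.11 CPM under the control diet and at 0.147, 0.346 and 0.523 CPM under the zinc-deficient diet. The shares above cover tested genes only, and none was computed over other untested genes. No direction is therefore read from these 6. The 540 other odorant receptors that passed the filter had a median of 0.14, those on chromosome 7 of 0.18 (171 genes) and those on chromosome 9 of −0.10 (70 genes). Those on chromosome 2 outside the region had a median of 0.08 (25 genes). Positive values made up 66.1% on chromosome 7, 47.1% on chromosome 9 and 60% on chromosome 2 outside the region. Whether the cluster differs from these sets in sign was not tested.

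Summed over all 225 members, the cluster stood at 208, 277 and 190.1 CPM in control libraries 4, 5 and 6 and at 179.97, 265 and 243 CPM in zinc-deficient 4, 5 and 6. The means were 225 ± 45.9 and 229 ± 44.2 CPM (SD, n = 3), and both diets held a high and a low library. The difference of 4.53 CPM was small against that spread (exact two-sided permutation p = 1, where 3 against 3 cannot go below 0.1). It turned negative without any of 4 libraries, namely control 4 (−4.10), control 6 (−12.8), zinc-deficient 5 (−13.3) or zinc-deficient 6 (−2.31), and was 30.5 CPM without control 5 and 29.2 CPM without zinc-deficient 4.

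As a share of all odorant receptor counts, the cluster held 13.8%, 14.4% and 12.8% under the control diet and 13.3%, 12.8% and 12.8% under the zinc-deficient diet. This share does not depend on library scaling and sets the cluster against the other receptors. The means were 13.7% ± 0.780 and 13.0% ± 0.278 (SD, n = 3), with ranges that overlap because zinc-deficient 4 lay above control 6. The difference of −0.715 percentage points had an exact two-sided permutation p = 0.2. It was −0.354 without control 5, −0.874 without zinc-deficient 4 and −1.13 without control 6.

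**Figure D2:**
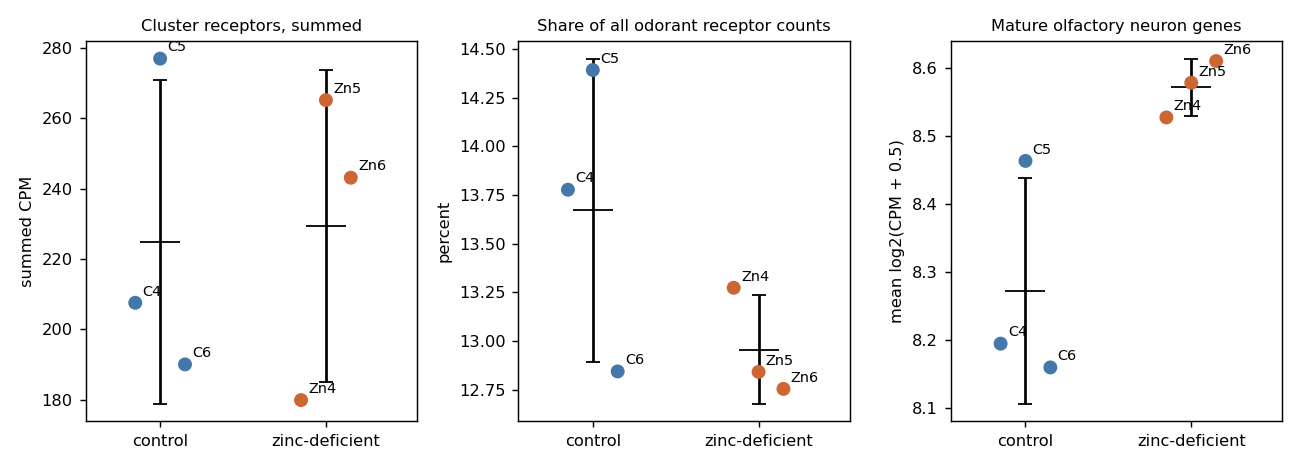
Summed CPM of the 225 cluster receptors (left), their share of all odorant receptor counts in percent (middle) and the mean log2(CPM + 0.5) of mature olfactory neuron genes (right), with 1 point per library and the mean and SD per diet. Vertical axes do not start at 0, C4 to C6 are control and Zn4 to Zn6 zinc-deficient libraries, and the ranges of the diets overlap in the left and middle panels only.

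Other genes of the neurons were read beside the receptors. All 16 genes of the list for mature olfactory neurons had positive log2 fold changes, with a median of 0.28. By the edgeR test 0 passed the adjusted threshold and 6 had an unadjusted p under 0.05. Omp was at 0.53 ± 0.21 (edgeR adjusted p = 0.327) and Cnga2, a subunit of the channel opened by cyclic AMP, at 0.35. Gnal, which encodes the G protein alpha subunit that odorant receptors activate, had 0.33 and Adcy3, the adenylyl cyclase downstream, 0.34. Gng13 of the same list had 0.35. The mean log2(CPM + 0.5) of the list was 8.19, 8.46 and 8.16 in control libraries and 8.53, 8.58 and 8.61 in zinc-deficient ones, which do not overlap. Per unit of these neuron genes the cluster stood lower under the zinc-deficient diet in the mean, but not beyond the spread. The log2 of its summed CPM minus the mean log2 CPM of the list was −0.492, −0.347 and −0.584 in the controls and −1.03, −0.524 and −0.682 in the zinc-deficient libraries (difference −0.271, exact two-sided permutation p = 0.2). Zinc-deficient 4 carried much of it, since without that library the difference was −0.129. In zinc-deficient 4 Omp was the highest of all and the receptor sum the lowest. Adcy3, Gfy and Ano2 were highest there too, but most genes of the list were not. Gnal, for instance, was at 893 CPM in zinc-deficient 4 against 1273 and 1285 CPM in zinc-deficient 5 and 6. The list's mean in zinc-deficient 4, 8.53, was the lowest of the zinc-deficient libraries, though above every control.

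Of the genes of receptor choice and trafficking, of which Adcy3, Rtp1 and Rtp2 are also in the list for mature neurons, 15 of 22 were positive, with a median of 0.20, 0 past the adjusted edgeR threshold and 6 with an unadjusted p under 0.05. Lhx2, which binds receptor enhancers, was at 155, 207 and 148 CPM against 280, 204 and 230 CPM (log2 fold change 0.48, edgeR adjusted p = 0.274). Its cofactor gene Ldb1 had 0.17, and Ebf1 had 0.22. Atf5, the factor of the feedback that fixes a choice of receptor, was at 906, 1104 and 985 CPM against 1866, 1193 and 1305 CPM, again highest in zinc-deficient 4 (log2 fold change 0.54, edgeR adjusted p = 0.29). Rtp1, which carries receptors to the surface, had 0.37. The 7 negative genes lay between −0.25 and −0.02, the lowest being Nfib, a nuclear factor I gene, at 268, 265 and 249 CPM against 195, 222 and 241 CPM (edgeR adjusted p = 0.442). Unlike for mature neuron genes, the list's mean log2(CPM + 0.5) overlapped between the diets, at 7.39 in both control 5 and zinc-deficient 5. Gap43 of immature neurons had 0.31, and its list had 12 of 12 positive values with a median of 0.36. Of the list for progenitors of the neurons, 9 of 10 were positive with a median of 0.32. Past the adjusted edgeR threshold there were 0 genes in both lists, and 7 and 3 had an unadjusted p under 0.05.

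Genes of other cell types in the samples differed between libraries as well. The 8 erythroid genes, among them Hba-a1 for alpha-globin, summed to 489 to 1794 CPM in the controls and 1498 to 4221 CPM in the zinc-deficient libraries, with the highest value in zinc-deficient 4. The 8 genes of neutrophils and their precursors summed to 10.1 to 218 CPM and to 268 to 392 CPM. The 10 osteoblast genes, among them Bglap, summed to 11925 to 20230 CPM and to 6547 to 13712 CPM. Most of each sum was Col1a1 and Col1a2, at 13443 and 6043 CPM in control 4, where Bglap was at 143 CPM. Of sustentacular genes the sums were 8597 to 12538 CPM and 11481 to 12553 CPM, and Cyp2g1 of that list had a log2 fold change of 0.17. Bowman gland genes summed to 4547 to 17792 CPM in the controls, where control 5 was the lowest, and to 4341 to 6349 CPM in the zinc-deficient libraries. Dmbt1 alone made up 13790 CPM of the sum in control 6, the highest. Respiratory ciliated cell genes summed to 524 to 759 CPM and to 393 to 558 CPM. Horizontal basal cell genes summed to 750 to 962 CPM and to 596 to 709.6 CPM, and Krt5 of that list had a log2 fold change of 0.08. Most of each of these sums was Igfbp5, at 745 CPM in control 6. Positive log2 fold changes were seen in 8 of 8 erythroid, 8 of 8 neutrophil, 0 of 10 osteoblast, 5 of 9 sustentacular, 2 of 7 Bowman gland, 1 of 7 ciliated and 1 of 7 horizontal basal cell genes. None of these lists had a gene at 0 in every library. By edgeR 0 of their genes passed the adjusted threshold, while 1 erythroid, 3 neutrophil, 7 osteoblast, 1 sustentacular, 1 Bowman gland, 2 ciliated and 4 horizontal basal cell genes had an unadjusted p under 0.05. Their part in the receptor values was not tested.

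The number of receptors detected and the evenness of their use overlapped between the diets. With every library thinned to the smallest total, 179, 187 and 173 members were expected to have at least 1 count under the control diet and 165, 184 and 183 under the zinc-deficient diet (exact two-sided permutation p = 0.8), and the difference of −2.31 turned to 1.40 without control 5 and to 3.89 without zinc-deficient 4. The effective number of members, the exponential of the Shannon entropy of their counts, was 118, 129 and 113 against 108, 123 and 123 (exact two-sided permutation p = 0.8), and its difference of −1.93 became 2.47 without control 5 and 3.13 without zinc-deficient 4. Zinc-deficient 4 was the lowest and control 5 the highest in both.

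Within each diet, single receptors differed widely between libraries. The biological coefficient of variation fitted by edgeR, the spread between libraries beyond counting error, had a median of 0.387 over the 108 tested members, with a range from 0.197 for Olfr1162 to 0.783. For 5976 other genes in the same range of levels the median was 0.333, and for the 540 other odorant receptors it was 0.366. These sets were not matched in level. The median log2 CPM was 0.69 for the members, 1.38 for the 5976 genes and 0.943 for the other receptors. Whether level accounts for the difference in spread was not tested. The examples below were chosen after their values were seen and are descriptions.

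Olfr1264 of MOR236 had 16, 138 and 32 counts in control libraries 4, 5 and 6 and 27, 87 and 139 in zinc-deficient 4, 5 and 6. It was high in control 5 and in zinc-deficient 5 and 6 and low in the other 3 libraries, so its diet means were both 4.76 CPM. Olfr1226 of MOR233 had 9, 68 and 6 counts against 18, 33 and 44, a ratio of 13.8 in CPM between the highest and the lowest control library. Its neighbour Olfr1228, 87.6% identical, had 2, 38 and 0 counts against 1, 0 and 26. Olfr1260 of MOR232 had 1, 36 and 6 counts against 3, 4 and 34. Olfr1228 and Olfr1260 were thus counted mostly in control 5 and zinc-deficient 6, and neither passed the low-count filter.

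Other receptors were lowest in zinc-deficient 4. Olfr1023 of MOR196 had 3, 22 and 38 counts under the control diet and 1, 39 and 24 under the zinc-deficient diet, with control 4 low as well. Olfr1033 of MOR199 had 24, 52 and 56 counts against 7, 78 and 77. Olfr1174 of MOR174 had 18, 16 and 20 counts against 2, 8 and 57, so the controls were alike and the zinc-deficient libraries ranged widely. Olfr1162, the highest member, ranged little, from 6.27 to 9.10 CPM.

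**Figure D3:**
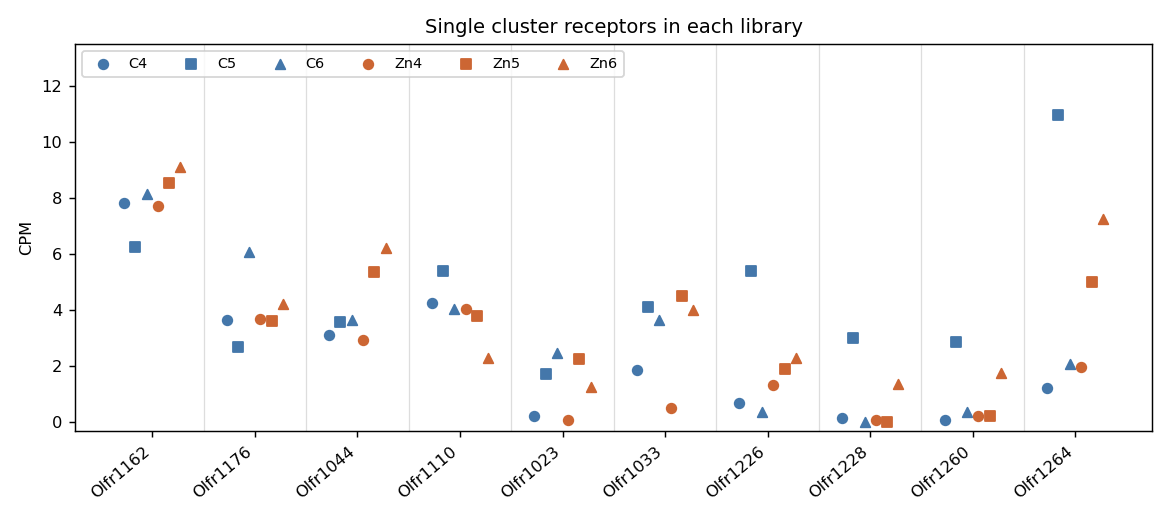
CPM of 10 cluster receptors in each library, with circles, squares and triangles for libraries 4, 5 and 6, blue for control and orange for zinc-deficient. The 4 receptors on the left have the highest levels per length, and the other 6 were picked for their spread within a diet, such as Olfr1264 from 1.24 to 10.96 CPM among the controls.

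The spread within the controls was not even along the cluster. In windows of 0.5 Mb, the members with starts from 88.5 to 89 Mb summed to 15.4, 33.3 and 9.86 CPM in control libraries 4, 5 and 6, those from 89 to 89.5 Mb to 14.3, 34.5 and 11.4 CPM and those from 89.5 to 90 Mb to 25.6, 47.5 and 19.8 CPM. Control 5 was thus at 2.64, 2.69 and 2.09 times the mean of the other controls in these 3 windows. In the 7 windows below 88.5 Mb that ratio was between 0.825 and 1.54, and in the last window, with 6 members, it was 1.43. The diets overlapped in all 11 windows.

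Divided at 88.5 Mb, a boundary chosen after the values were seen, the 151 proximal members summed to 142, 147 and 139 CPM in the controls and to 113, 168 and 155 CPM in the zinc-deficient libraries. The controls were close together there, and the low value was that of zinc-deficient 4. The 74 distal members summed to 65.9, 130 and 50.6 CPM in the controls and to 66.9, 97.2 and 87.8 CPM in the zinc-deficient libraries. Here control 5 was the highest of all and the other controls the lowest. The diet means of the distal stretch were 82.0 ± 41.9 and 84.0 ± 15.5 CPM (SD, n = 3), and without control 5 the control mean was 58.2 CPM. Among members with at least 120 counts in all, control 5 was the highest library for 10 of 22 in the distal stretch and for 5 of 42 in the proximal one.

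**Figure D4:**
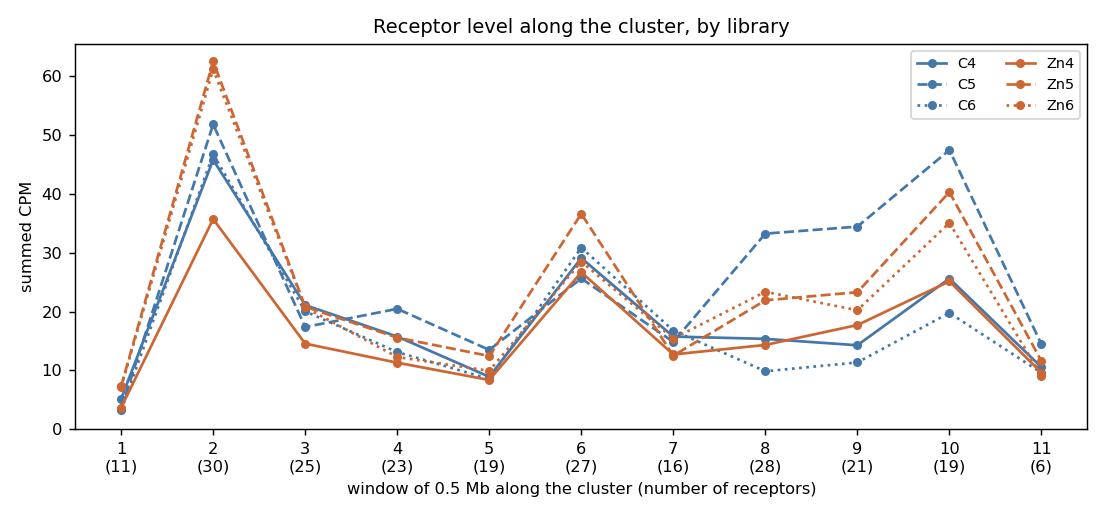
Summed CPM of the cluster receptors in 11 windows of 0.5 Mb along the cluster (horizontal axis, number of receptors in parentheses), with 1 line per library, blue for control (C4 to C6) and orange for zinc-deficient (Zn4 to Zn6). In windows 8 to 10 control library 5 lies above all others by the widest margins, and by less it is also the highest in windows 4, 5 and 11. In window 2 zinc-deficient libraries 5 and 6 lie highest and zinc-deficient 4 lowest.

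Of 8 families that lie wholly in the distal stretch, control 5 was the highest library for 5, namely MOR226, MOR231, MOR232, MOR233 and MOR236. MOR226 and MOR236 hold 1 member each, that of MOR236 being Olfr1264, described above. As the boundary was chosen from the same values, this count is a description and no separate evidence. The other wholly distal families were highest in a zinc-deficient library, MOR228 in zinc-deficient 4 and MOR234 and MOR235 in zinc-deficient 5. MOR230, most of whose members are distal, was highest in control 5 as well. The 17 receptors of MOR233 summed to 13.8, 31.7 and 8.36 CPM in the controls and to 13.1, 16.6 and 18.7 CPM under the zinc-deficient diet. The 8 of MOR230 summed to 1.01, 7.38 and 1.37 CPM against 1.99, 4.33 and 3.50 CPM. Proximal families with many members went both ways. The 16 receptors of MOR174 summed to 26.1, 22.6 and 33.3 CPM against 25.6, 29.9 and 28.7 CPM, with control 5 the lowest of all libraries. The 9 of MOR185 summed to 15.5, 13.8 and 14.3 CPM against 10.4, 17.8 and 20.7 CPM. By contrast, control 5 was the highest of all libraries for the proximal families MOR264, MOR177, MOR172 and MOR213. The 15 receptors of MOR264 summed to 7.77, 11.91 and 7.38 CPM against 7.50, 9.87 and 8.21 CPM. The 13 of MOR177 summed to 6.83, 7.305 and 4.44 CPM against 6.25, 6.75 and 4.55 CPM. In each of the families whose sums are given above the diets overlapped. Among the other families, the ranges were separate and higher under the zinc-deficient diet for MOR235. They were separate and lower for MOR191, MOR198 and MOR200. These families hold 1 or 2 members each, and no test was run on families.

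Receptors named as pseudogenes are not members, but some were counted at like levels. Olfr1025-ps1 had 72, 50 and 70 counts under the control diet and 44, 110 and 104 under the zinc-deficient diet, 450 in total, where Olfr1162 alone among the members had more. Its CPM was lowest in zinc-deficient 4, at 3.24, and highest in zinc-deficient 5, at 6.35.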

How the data were processed

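The authors deposited 1 table with whole-number counts per gene, named total counts per the file headers, and RPKM values for 6 libraries. Libraries were made from 500 ng of total RNA after depletion of ribosomal RNA, per the labels' protocols. The sources used here name no aligner, counting tool, strand setting, build or annotation, so reads of overlapping genes (3 members overlap another listed gene) or of antisense RNA cannot be told apart. The deposited RPKM was used only to rank levels between genes and in 1 alternative.

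For the diet comparison, edgeR 4.0.16 (R 4.3.3) was run on the raw counts: filterByExpr, TMM scaling, robust quasi-likelihood fit, diet alone in the model, two-sided test, Benjamini-Hochberg over all genes tested, threshold 0.05. CPM values use the TMM-scaled library size, except the floor of 3 counts and the shares of the library, which use the column total. Standard errors were obtained by dividing the size of each log2 fold change by the root of its F statistic. The code was tested on simulated data. Single values per library were compared by exact permutation. Alternatives used DESeq2 1.42.0 and limma 3.58.1. Coding sequences were aligned with edlib 1.3.9.post1. The planned choice of the pair with the most identical proteins was made on coding sequences, as no protein table was used here.

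The members, gene lists and tests were chosen with earlier results of these data known. Named by rule were the 10 members with the highest mean RPKM, those past the test (none), the 4 highest and 4 lowest log2 fold changes, the first and last member, the most alike pair and a fixed set of cell markers. The other members were named after their values were seen. A list of vomeronasal genes (median log2 fold change 0.20 over 4 tested genes of 6, with 1 at 0 in every library) was also counted. Within each diet no 2 libraries agreed within sampling noise, so 3 per diet were counted.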

Additional observations from a re-analysis of the deposited data

How the results depend on the processing

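No receptor of the cluster was called under any of the 15 alternatives to the edgeR test that were run: the replicate number as a block, each library left out, median-of-ratios or upper-quartile scaling, scaling to the odorant receptor counts, no low-count filter, at least 100 counts in all, DESeq2, limma-voom and limma on log2(RPKM + 0.1). Most of these called few genes of any kind. Over all genes tested, 9 to 50 were called with a library left out and 27 with at least 100 counts. Median-of-ratios and upper-quartile scaling called 21 and 22, and scaling to the odorant receptor counts called 2. Where so few genes are called, 0 receptors says little about the receptors. The median log2 fold change of the tested receptors, −0.0035, lay between −0.0783 and 0.2007 under the 15 alternatives. The same-numbered libraries did not deviate together throughout (correlations −0.06, 0.179 and 0.079, against −0.215 to 0.116 between libraries of different number). These values cannot settle whether the numbers mark pairs, and the main fit did not take them as pairs. With the replicate block the median was 0.0706, while all genes called rose from 22 to 153 and DESeq2 called 343. The difference in summed CPM, 4.53, ranged from −13.3 to 30.5 when each library was left out. The number of members detected at equal depth differed by −2.31, from −5.81 to 3.89 with a library left out, and by 0.728 with at least 5 counts in place of 1. The effective number differed by −1.93, from −5.34 to 3.13. For the 2 stretches of the cluster, an alternative added after seeing the data, the difference was 2.63 CPM below 88.5 Mb (−8.62 to 18.8) and 1.90 CPM from 88.5 Mb (−13.8 to 25.7). The cause was not tested. The cluster's share of receptor counts stayed negative in difference under all alternatives run (−1.13 without control 6 to −0.354 without control 5), as did the sum per neuron gene level (−0.382 to −0.129). The replicate block could not change either difference, nor could the column total change the sum per neuron gene level. With a library left out, the exact two-sided permutation p of both lay between 0.1 and 0.5. The steady sign is thus a description only. Depth limits single members: 117 of 225 did not pass the low-count filter, and the 108 that did held 86.5% of the cluster's counts.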
